A study of Mus musculus with 11 samples.

Results

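The 26S proteasome is the protease that degrades ubiquitin-tagged proteins, and its subunit genes were followed here through 11 mouse lymphomas. On the arrays, 49 gene names matched the naming pattern of proteasome subunits (Psma to Psmg followed by a number), read by 61 probes, out of 20181 genes tested in all. One of the 49, Psmc3ip, shares the pattern only by name and encodes no subunit, which leaves 48 proteasome genes. The brightest probe stood for the 11 genes with several probes. Of the 49, 48 had a probe well above background on at least 3 arrays and were tested. The exception was Psmb11, so the 48 members tested are 47 proteasome genes and Psmc3ip.

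The tumours were 4 plasma cell lymphomas (PCL1 to PCL4), 3 mantle cell lymphomas (MCL1 to MCL3) and 4 Burkitt lymphomas (BL1 to BL4), taken from lymph node in mice of the Black 6 strain. All 11 carried the genotype c-myc-3'RR/p53+/-, a c-myc transgene under the 3' enhancers of the Igh locus (3'RR, active in B cells) together with heterozygous loss of p53, so the types share both lesions, and no normal lymph node or wild-type sample entered a comparison. Total RNA was hybridised to one-colour arrays, and levels are given as log2 signal minus the 75th percentile of the array, so a level compares tumours for one probe and never one probe with another. Whether the tumours are from separate mice is not stated in the labels, and the p-values cover only the scatter among these samples, part of which may be technical. One slide held one type, and slide and type cannot be told apart. In bulk tumour RNA, fewer cells of a type and less RNA per cell cannot be told apart either.

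The core of the proteasome is a barrel of stacked rings, outer rings of alpha subunits and inner rings of beta subunits, and 3 kinds of beta subunit carry the proteolytic sites. A regulatory particle of ATPases and non-ATPase subunits caps the barrel, binds ubiquitin chains, removes them and unfolds the substrate. Under interferon-gamma, and constitutively in many lymphoid cells, Psmb8, Psmb9 and Psmb10 take the places of Psmb5, Psmb6 and Psmb7 in new particles, which gives the immunoproteasome and changes the peptides offered to MHC class I. Plasma cells are known for a heavy load of secretory protein on the proteasome.

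Promoters are shown for 4 members that the results turn on, chosen after their values were seen: Psmb6 and Psme4 (higher in most PCL), Psmb9 (lower in most PCL) and its neighbour Psmb8. They are RefSeq windows on build GRCm38.p6 from 250 bases before to 50 bases after the start site. Psmb6 lies at chr11:70525107-70525406 on the plus strand, Psme4 at chr11:30771525-30771824 on the plus strand, Psmb8 at chr17:34197945-34198244 on the plus strand and Psmb9 at chr17:34187281-34187580 on the minus strand. Capitals mark a match to TGACNNNGC, the core of the antioxidant response element to which the proteasome-inducing factor Nfe2l1 can bind, in Psmb6 (plus strand) and Psme4 (opposite strand), and a match to TTCNNNGAA, the interferon gamma-activated sequence, in Psmb8.
Psmb6: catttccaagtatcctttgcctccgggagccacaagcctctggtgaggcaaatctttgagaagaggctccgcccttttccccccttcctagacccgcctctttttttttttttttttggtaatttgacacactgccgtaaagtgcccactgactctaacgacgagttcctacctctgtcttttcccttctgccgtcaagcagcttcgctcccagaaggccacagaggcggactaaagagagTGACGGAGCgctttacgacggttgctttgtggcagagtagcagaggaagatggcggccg
Psme4: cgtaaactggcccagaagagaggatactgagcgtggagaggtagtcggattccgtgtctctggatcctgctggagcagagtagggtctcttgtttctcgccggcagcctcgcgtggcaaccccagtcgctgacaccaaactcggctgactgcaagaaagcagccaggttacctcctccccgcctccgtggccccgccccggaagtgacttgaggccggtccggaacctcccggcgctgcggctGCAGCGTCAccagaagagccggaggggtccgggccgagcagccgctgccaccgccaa
Psmb8: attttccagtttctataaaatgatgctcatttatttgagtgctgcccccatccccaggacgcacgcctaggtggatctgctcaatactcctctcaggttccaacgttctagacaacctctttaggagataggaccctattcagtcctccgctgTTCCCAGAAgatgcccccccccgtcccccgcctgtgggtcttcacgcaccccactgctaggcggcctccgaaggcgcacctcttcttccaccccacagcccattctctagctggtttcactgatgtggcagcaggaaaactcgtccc
Psmb9: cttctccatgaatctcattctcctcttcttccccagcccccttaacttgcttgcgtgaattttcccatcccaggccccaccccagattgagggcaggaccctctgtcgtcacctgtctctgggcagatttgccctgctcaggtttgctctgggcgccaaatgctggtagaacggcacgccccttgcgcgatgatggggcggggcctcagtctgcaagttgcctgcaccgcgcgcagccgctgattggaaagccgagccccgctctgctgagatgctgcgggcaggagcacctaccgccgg
The windows of 41 members were searched on both strands. TGACNNNGC was found in 6 of them, among Psmb5, Psmb6 and Psme4, against 12.4% of 32851 windows of the same length. TTCNNNGAA was found in 3, against 8.30% of all windows, and GAAANNGAAA, a core of the interferon-stimulated response element, in 5, against 3.44%. None of the 3 motifs was found in the Psmb9 window, which shares 275 bases with the window of Tap1, the peptide transporter gene transcribed from the other strand. A match describes the letters only.

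The B cell gene Cd79a, a part of the B cell receptor, was present in each tumour, at 4.28 to 4.87 in PCL, 4.15 to 4.86 in MCL and 4.73 to 5.33 in BL. Of 8 B cell genes 6 were higher in PCL than in MCL (median 0.13) and 3 than in BL (median -0.19), with 0 called in either. The lowest differences were -1.54 from MCL and -1.53 from BL. In every PCL 2 of the 8 (25%) lay below every BL, against 4.40% of all genes. Sdc1, the plasma cell surface marker, lay at -1.03 to -0.32 in PCL2 to PCL4 but at -3.26 in PCL1, against -4.15 to -2.50 in MCL and -5.27 to -3.17 in BL. Ccnd1, the cyclin that defines human mantle cell lymphoma, did not set MCL apart from BL, with 1.54 to 2.38 in MCL and 0.64 to 2.56 in BL. PCL1 therefore stood apart from the other PCL in Sdc1, a marker of its own label. Over the 8 plasma cell genes its mean centred level was 0.39, against 0.80 to 1.19 in PCL2 to PCL4. That mean was -0.69 to 0.57 in MCL and -1.10 to -0.23 in BL. For several members the value without PCL1 is given too. MCL1 stood apart in interferon-response genes, whose median centred level was 2.10 there, against -0.88 and -0.78 in MCL2 and MCL3.

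Most of the particle was higher in PCL than in MCL, and few single genes passed the test. In limma's fit 1 member of 48 was called at an adjusted p under 0.05 between PCL and MCL, Psmc3, against 6.94% of all genes. Without adjustment 17 members (35.4%) had a p under 0.05, against 24.4% of all genes, with 16 of the 17 higher in PCL. The 4 PCL lay above the 3 MCL without overlap for 14 members (29.2%), against 9.07% of all genes, and below them for 0 members, against 13.8% of all genes. The median difference of the members was 0.39 and that of all genes -0.03, with 35 of 48 members higher in PCL. Leaving out PCL1 gave 5 called members (Psmc3, Psmd2, Psmd7, Psmd10 and Psme4), 10.4% of them, against 12.5% of all genes, and leaving out BL1 gave 2 (Psmb6 and Psmd1), 4.17%, against 7.50% of all genes. Without any one of the other tumours it was 0.

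Against BL, 0 members were called in PCL, against 0.659% of all genes, 6 had an unadjusted p under 0.05, against 17.6% of all genes, and the lowest adjusted p was 0.171. Without PCL1, Psmd10 and Psme4 were called, 4.17% of the members, against 5.46% of all genes. No member separated PCL from BL without overlap, where 6.64% of all genes lay higher and 4.40% lower. Between MCL and BL, 0 members were called, against 6.64% of all genes, and 5 had an unadjusted p under 0.05, against 18.5%, with a lowest adjusted p of 0.119. The 3 MCL lay below the 4 BL without overlap for 6 members, Psmb4, Psmc3, Psmc4, Psmd2, Psmd4 and Psmd7, against 3.70% of all genes, and above them for 0 members, against 14.0%. Across the 3 types together the F test called 0 members, against 8.43% of all genes, and 10 (20.8%) had an unadjusted p under 0.05, against 26.6%. The heat map of centred levels shows the members by role.

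**Figure D1:**
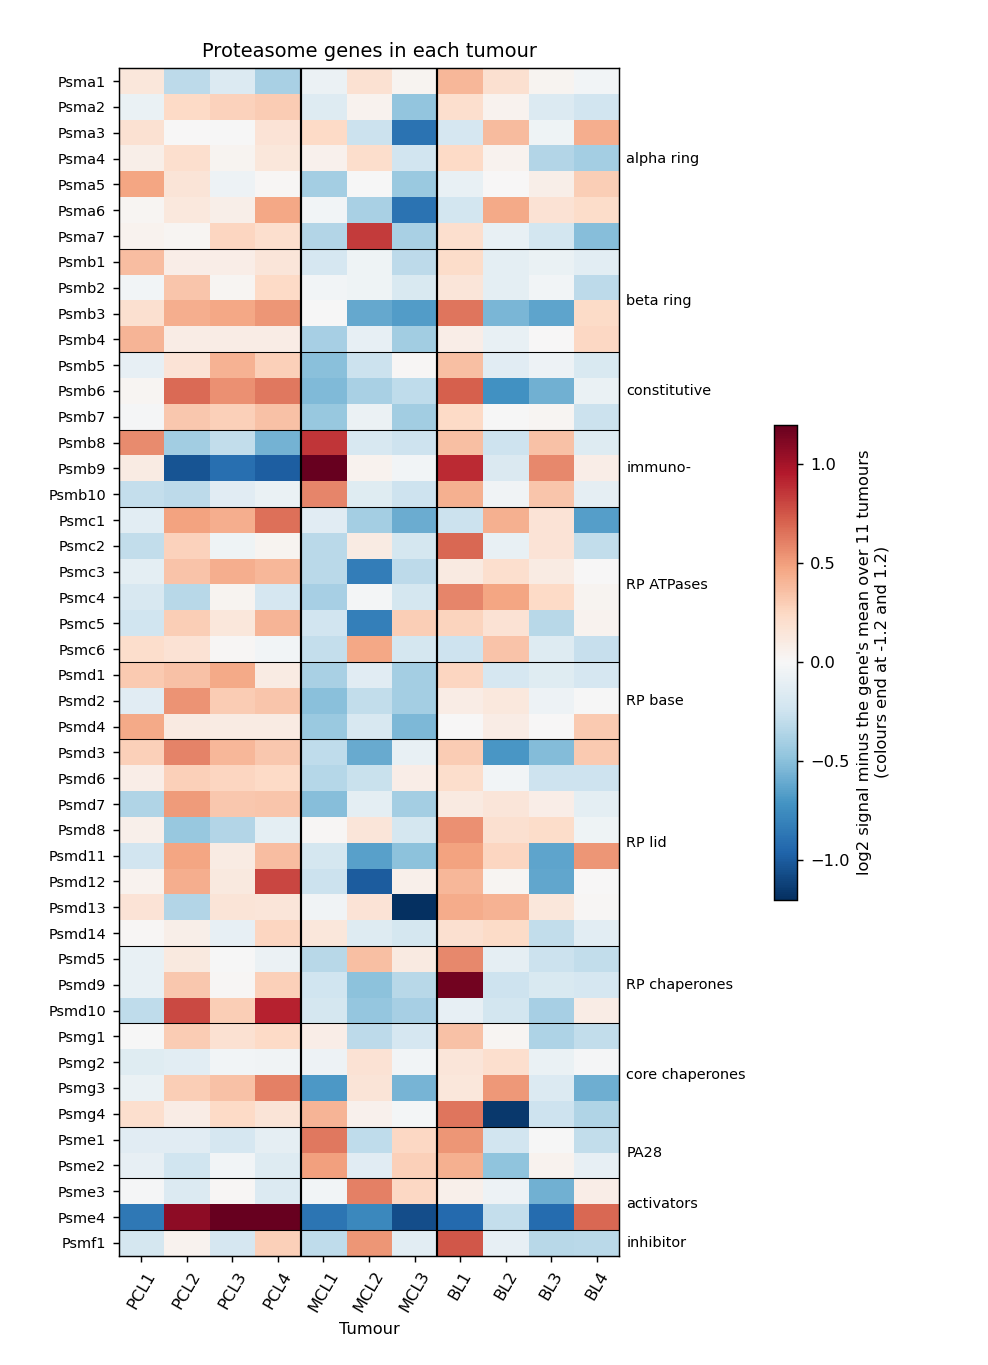
Level of the tested proteasome genes in each tumour, without Psma8 and Psmc3ip, as log2 signal centred on the gene's mean over the 11 tumours (colour), with genes in rows by role and tumours in columns by type. Most core and regulatory particle rows are above their mean in PCL2 to PCL4 and below it in the 3 MCL, while Psmb8 and Psmb9 are below their mean in PCL2 to PCL4 and highest in MCL1.

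The constitutive catalytic subunits were higher in PCL than in MCL, by a median of 0.55, and none passed the test (unadjusted p under 0.05 for 2 of 3). Psmb6, the beta1 subunit that cuts after acidic residues, lay at 5.25, 5.91, 5.78 and 5.86 in PCL1 to PCL4, at 4.71, 4.84 and 4.92 in MCL1 to MCL3, and at 5.95, 4.51, 4.66 and 5.15 in BL1 to BL4. All 4 PCL were above all 3 MCL, and BL1 was above every PCL, BL2 and BL3 were below every MCL and BL4 lay between PCL and MCL. The Psmb6 difference was 0.88 ± 0.33 between PCL and MCL (SE, 95% interval 0.15 to 1.61, adjusted p = 0.135) and 0.63 ± 0.30 between PCL and BL (adjusted p = 0.314). Without PCL1 it was 1.03 from MCL (adjusted p = 0.0784) and 0.78 from BL (adjusted p = 0.188).

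Psmb7, the beta2 subunit with trypsin-like activity, lay at 3.41, 3.75, 3.71 and 3.78 in PCL1 to PCL4, at 2.97, 3.35 and 3.01 in MCL1 to MCL3, and at 3.67, 3.42, 3.45 and 3.17 in BL1 to BL4. The PCL again lay above the MCL without overlap, by 0.55 ± 0.18 (adjusted p = 0.0986), and the BL spread across both. Psmb5, the beta5 subunit with chymotrypsin-like activity and the main target of bortezomib, lay at 5.97, 6.23, 6.49 and 6.35 in PCL1 to PCL4, at 5.57, 5.81 and 6.09 in MCL1 to MCL3, and at 6.43, 5.93, 6.01 and 5.88 in BL1 to BL4. Its groups overlapped, since MCL3 was above PCL1, and the difference between PCL and MCL was 0.44 ± 0.21 (adjusted p = 0.225).

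The immunoproteasome catalytic subunits ran the other way, with 0 of 3 higher in PCL than in MCL (median -0.32) or than in BL (median -0.36), and none passed the test. Without MCL1, 1 of the 3 was higher in PCL than in MCL and the median was -0.01. Psmb9, the inducible beta1 subunit, lay at 3.72, 2.59, 2.72 and 2.63 in PCL1 to PCL4, at 5.05, 3.67 and 3.59 in MCL1 to MCL3, and at 4.52, 3.45, 4.20 and 3.70 in BL1 to BL4. PCL2, PCL3 and PCL4 were the 3 lowest of the 11 tumours, below every MCL and BL, whereas PCL1 overlapped both. The difference was -1.19 ± 0.43 between PCL and MCL (95% interval -2.15 to -0.23, adjusted p = 0.127) and -1.05 ± 0.40 between PCL and BL (95% interval -1.94 to -0.16, adjusted p = 0.211).

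Without PCL1 the Psmb9 difference was -1.45 from MCL (adjusted p = 0.0503) and -1.32 from BL (adjusted p = 0.0805), and without MCL1 it was -0.71 from MCL (adjusted p = 0.311). Under another name the array held a dimmer probe described as a beta-type proteasome subunit. It averaged -5.05 ± 0.47 in PCL (SD, n = 4), -3.56 ± 0.77 in MCL (n = 3) and -4.09 ± 0.37 in BL (n = 4). That probe was well above background on 9 of the 11 arrays, and it ran in the same direction between types as Psmb9. Whether it reads Psmb9 was not tested.

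Psmb8, the inducible beta5 subunit, lay at 4.95, 3.96, 4.09 and 3.81 in PCL1 to PCL4, at 5.24, 4.19 and 4.13 in MCL1 to MCL3, and at 4.74, 4.13, 4.73 and 4.23 in BL1 to BL4. PCL2 to PCL4 were the lowest tumours here too, and PCL1 was above every BL. The difference between PCL and MCL was -0.32 ± 0.35 (adjusted p = 0.627), 0.04 without MCL1 and -0.57 without PCL1 (adjusted p = 0.273). From BL it was -0.25 (adjusted p = 0.738), and -0.50 without PCL1 (adjusted p = 0.372).

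Psmb10, the inducible beta2 subunit, lay at 4.69, 4.66, 4.84 and 4.89 in PCL1 to PCL4, at 5.56, 4.83 and 4.73 in MCL1 to MCL3, and at 5.40, 4.93, 5.31 and 4.87 in BL1 to BL4. MCL1, BL1 and BL3 were high, and the other MCL and BL lay within or close to the PCL. The difference was -0.27 ± 0.23 from MCL (adjusted p = 0.513, -0.01 without MCL1) and -0.36 ± 0.22 from BL (adjusted p = 0.432).

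**Figure D2:**
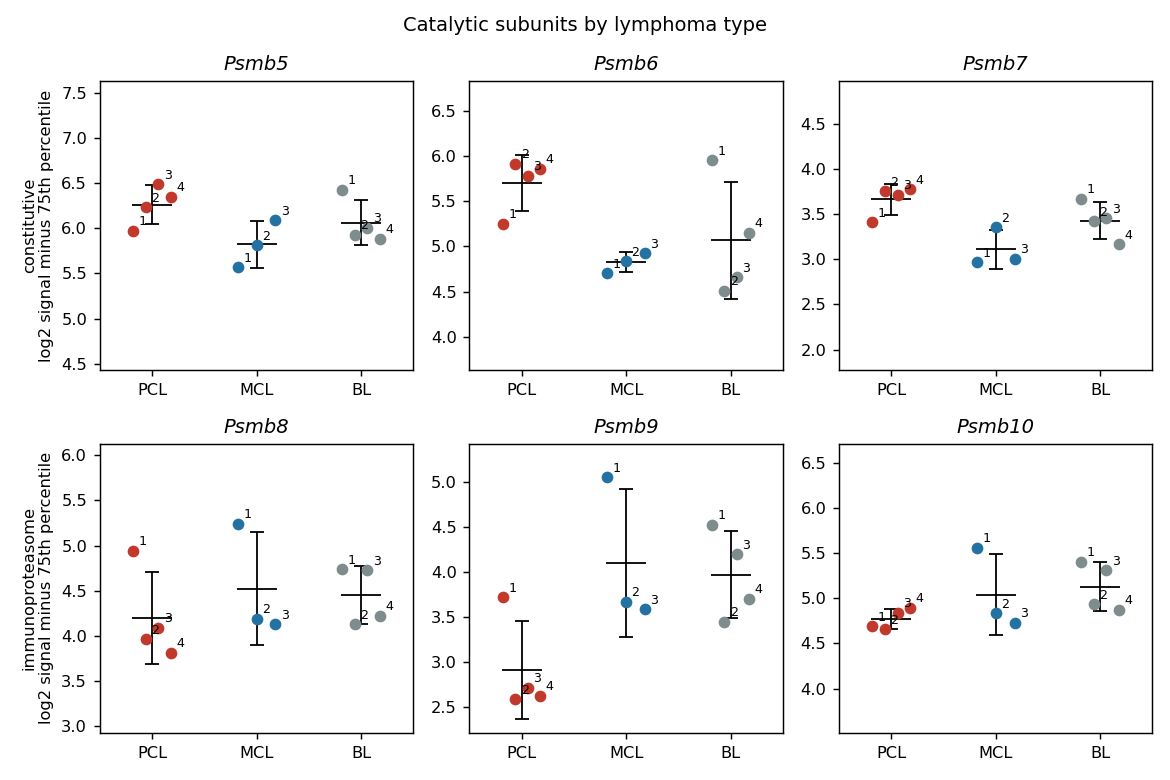
Log2 signal minus the array's 75th percentile (vertical axis) of the 3 constitutive subunits (top) and the 3 immunoproteasome subunits (bottom) in each tumour, by type, with the mean and SD of the type. The panels have different axis positions and the same span. Psmb6 and Psmb7 are higher in every PCL than in every MCL, and Psmb9 is lowest in PCL2, PCL3 and PCL4.

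The balance of both sets was summarised as the mean centred level of Psmb8, Psmb9 and Psmb10 minus that of Psmb5, Psmb6 and Psmb7. It was 0.16, -0.98, -0.86 and -0.97 in PCL1 to PCL4, 1.45, 0.15 and 0.06 in MCL1 to MCL3, and 0.12, 0.13, 0.62 and 0.12 in BL1 to BL4. PCL2 to PCL4 held the 3 lowest values, PCL1 lay among the MCL and BL, and MCL1 was the highest of all. The difference between PCL and MCL was -1.21 (-1.49 without PCL1, -0.77 without MCL1), and that between PCL and BL -0.91 (-1.18 without PCL1). Between MCL and BL it was 0.30, and -0.15 without MCL1.

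By pairs of subunits that take the same place in the particle, Psmb9 minus Psmb6 spread most, with 0.08, -1.71, -1.45 and -1.62 in PCL1 to PCL4, 1.95, 0.44 and 0.27 in MCL1 to MCL3, and 0.18, 0.55, 1.15 and 0.16 in BL1 to BL4. Every PCL lay below every MCL and BL in this pair, with PCL1 close to BL1 and BL4. Psmb10 minus Psmb7 lay at -0.64 to -0.27 in PCL, -0.07 to 1.04 in MCL and -0.04 to 0.31 in BL, also without overlap between PCL and the other types. Psmb8 minus Psmb5 overlapped, with -0.85 to 0.66 in PCL, -0.27 to 1.36 in MCL and -0.11 to 0.41 in BL.

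The immunoproteasome acts with a set of antigen presentation genes. Of the 12 MHC class I peptide loading genes 5 were higher in PCL than in MCL (median -0.29), and 2 were called, Nlrc5 lower and Pdia3 higher, where 6.94% of all genes were called. Nlrc5, the transactivator of MHC class I genes, fell in PCL against MCL, at 0.83, 0.12, 0.24 and -0.36 in PCL1 to PCL4, 3.78, 2.36 and 1.64 in MCL1 to MCL3, and 1.38, 1.76, 2.84 and 1.78 in BL1 to BL4. All PCL were below all other tumours, with a difference of -2.39 ± 0.52 from MCL (adjusted p = 0.0269) and of -1.73 ± 0.48 from BL (adjusted p = 0.110).

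Pdia3, a disulfide isomerase of the peptide loading complex that also serves the folding of secreted proteins, rose by 0.95 ± 0.23 in PCL against MCL (adjusted p = 0.0388) and differed from BL by 1.10 (adjusted p = 0.0529). Tap1 lay at 0.40, -1.03, -1.01 and -0.88 in PCL1 to PCL4, 2.10, 0.64 and -0.11 in MCL1 to MCL3, and 0.97, 0.09, 0.98 and 0.42 in BL1 to BL4. As for Psmb9, PCL2 to PCL4 were the lowest, and PCL1 overlapped the other types (difference from MCL -1.51 ± 0.53, adjusted p = 0.115, and -0.90 without MCL1). Tap2, the partner of Tap1 in the transporter, differed from MCL by -0.09 (adjusted p = 0.880) and from BL by -0.08 (adjusted p = 0.919), and B2m, the light chain of MHC class I, by -0.70 from MCL (adjusted p = 0.247).

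Of 19 interferon-response genes 7 were higher in PCL than in MCL (median -0.53), 8 were higher in PCL than in BL (median -0.10) and 15 were higher in MCL than in BL (median 0.27), where 54.2% of all genes were higher. None was called in any of the 3 comparisons, and an unadjusted p was under 0.05 for 0, 2 and 0 of them. Their median centred level was -0.63, -0.39, -0.13 and 0.09 in PCL1 to PCL4, 2.10, -0.88 and -0.78 in MCL1 to MCL3, and 0.43, -1.0, 0.12 and 0.45 in BL1 to BL4. MCL1, highest in this list, was also the tumour with the highest Psmb8, Psmb9, Psmb10, Psme1 and Psme2. PCL2 to PCL4, lowest in Psmb9, were not the lowest in the list. The part of interferon in these values was not tested. Irf1, an interferon-induced factor of these promoters, differed by -0.53 between PCL and MCL (adjusted p = 0.525).

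Marker lists of other cell types were read beside these values. All 11 macrophage genes measured were higher in PCL than in MCL (2 called, where 6.94% of all genes were) and than in BL (0 called), with a median centred level of -0.95 to 2.74 in PCL, -2.05 to 0.25 in MCL and -0.68 to 0.01 in BL, lowest of the PCL in PCL1. Of 9 T and NK cell genes 2 (Cd4 and Prf1, 22.2%) were called lower in PCL than in MCL, against 6.94% of all genes. Between PCL and BL 0 of the 9 were called, against 0.659% of all genes. Higher in MCL than in BL were 2 called genes (22.2%), against 6.64% of all genes. The median of the 9 was -0.10 to -0.04 in PCL, 0.01 to 0.90 in MCL and -0.74 to 0.34 in BL. The plasma cell list, with 6 of 8 higher in PCL than in MCL and 0 called, had medians of -0.21 to 0.73 in PCL, -0.86 to 0.43 in MCL and -0.88 to -0.02 in BL. Of 5 dendritic cell genes 3 were higher in PCL than in MCL and 5 than in BL (0 called in either), with medians of -0.11 in PCL1 and 0.67 to 1.13 in PCL2 to PCL4, -0.19 to 0.29 in MCL and -0.37 to 0.08 in BL. Of 8 granulocyte genes 7 were higher in PCL than in MCL, while Elane was called lower (12.5%, against 6.94% of all genes). The medians of the 8 were -1.72 to 3.25 in PCL, -2.19 to 0.39 in MCL and -2.01 to 1.83 in BL. Of 8 stromal and endothelial genes 5 were higher in PCL than in MCL (0 called), with medians of -0.33 to 1.40 in PCL, -1.01 to 0.43 in MCL and -0.66 to 0.92 in BL. The part of these cells in the proteasome differences was not tested.

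The structural rings of the core were higher on average in PCL than in MCL, with 0 called (unadjusted p under 0.05 for 2 in each ring). This held for 6 of 7 alpha subunits (median 0.38) and 4 of 4 structural beta subunits (median 0.42). The 4 structural beta subunits were all higher in each of the 4 PCL than in each of the 3 MCL, as were 9.07% of all genes. Only 1 of the 7 alpha subunits was. The mean centred level of the alpha ring was 0.12, 0.06, 0.06 and 0.13 in PCL1 to PCL4. In MCL1 to MCL3 it was -0.11, 0.09 and -0.47, so MCL2 lay above PCL2 and PCL3. Psmb3, the beta3 subunit, lay at 5.73, 5.97, 6.00 and 6.06 in PCL1 to PCL4, at 5.53, 4.92 and 4.86 in MCL1 to MCL3, and at 6.17, 4.98, 4.90 and 5.77 in BL1 to BL4. The BL split, with BL1 and BL4 near the PCL and BL2 and BL3 near MCL2 and MCL3. The difference between PCL and MCL was 0.84 ± 0.32 (adjusted p = 0.143). Among the alpha subunits the differences from MCL reached from -0.23 for Psma1 to 0.61 for Psma6.

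The regulatory particle showed the same direction, with 16 of 17 base and lid genes higher in PCL than in MCL (median 0.55) and 1 of them called. Psmc3, an ATPase of the base (Rpt5), rose in PCL against MCL. Its probe lies at chr2:90899526-90899585 (build mm9, plus strand). It lay at 5.43, 5.90, 6.00 and 5.95 in PCL1 to PCL4, at 5.23, 4.73 and 5.24 in MCL1 to MCL3, and at 5.66, 5.76, 5.66 and 5.56 in BL1 to BL4. MCL was low, below every PCL and every BL, while BL lay inside the range of the PCL. The means were 5.82 ± 0.26 in PCL (SD, n = 4), 5.07 ± 0.29 in MCL (n = 3) and 5.66 ± 0.08 in BL (n = 4).

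The Psmc3 difference between PCL and MCL was 0.75 ± 0.20 (95% interval 0.31 to 1.19), a 1.68-fold level, with an adjusted p of 0.0495. A second probe of the gene gave 0.65. Without PCL1 the difference was 0.88 (adjusted p = 0.0165). The call stood close to the threshold and was lost under 17 of 24 other settings, where the adjusted p reached 0.147. Between MCL and BL the Psmc3 difference was -0.59 ± 0.20 (adjusted p = 0.119).

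Psmd2 and Psmd1, the large scaffold subunits of the base, came next. Psmd2 lay at 3.85, 4.53, 4.29 and 4.31 in PCL1 to PCL4, at 3.48, 3.69 and 3.58 in MCL1 to MCL3, and at 4.08, 4.10, 3.92 and 3.98 in BL1 to BL4 (PCL minus MCL 0.66 ± 0.18, adjusted p = 0.0560). Psmd1 lay at 4.65, 4.69, 4.79 and 4.44 in PCL1 to PCL4, at 3.95, 4.20 and 3.93 in MCL1 to MCL3, and at 4.59, 4.14, 4.19 and 4.14 in BL1 to BL4 (PCL minus MCL 0.62 ± 0.18, adjusted p = 0.0640). Both separated PCL from MCL without overlap. These 2 were singled out after their values were seen.

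Psmd12, a lid subunit (Rpn5), was one of the members with the widest spread of type means, at 4.73, 5.13, 4.81 and 5.50 in PCL1 to PCL4, 4.44, 3.69 and 4.75 in MCL1 to MCL3, and 5.09, 4.72, 4.07 and 4.69 in BL1 to BL4. MCL3 reached into the PCL and MCL2 was the lowest of all (PCL minus MCL 0.75 ± 0.32, adjusted p = 0.186, and 0.45 without MCL2). Psmd14, the deubiquitinase of the lid, had one of the narrowest, at 2.19, 2.25, 2.08 and 2.43 in PCL1 to PCL4, 2.32, 2.02 and 1.97 in MCL1 to MCL3, and 2.37, 2.40, 1.88 and 2.05 in BL1 to BL4. Its groups overlapped throughout, and the 95% interval of the difference between PCL and MCL was -0.28 to 0.55.

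As a mean over the 17 base and lid genes the centred level was -0.01, 0.22, 0.16 and 0.24 in PCL1 to PCL4, -0.27, -0.27 and -0.30 in MCL1 to MCL3, and 0.25, 0.12, -0.11 and -0.04 in BL1 to BL4. MCL was uniformly low and PCL1 the lowest of the PCL. The difference was 0.44 between PCL and MCL, 0.10 between PCL and BL, and -0.33 between MCL and BL. Centring the arrays on their median instead gave a median difference of all genes of -0.15 between PCL and BL, where the 75th percentile gave 0.09, and the regulatory particle difference between PCL and BL was then -0.15, so its direction against BL depends on the scaling. Under that scaling 13 of 48 members, against 33 of 48 here, were higher in PCL than in BL, and 35 of 48 were higher in PCL than in MCL under both.

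**Figure D3:**
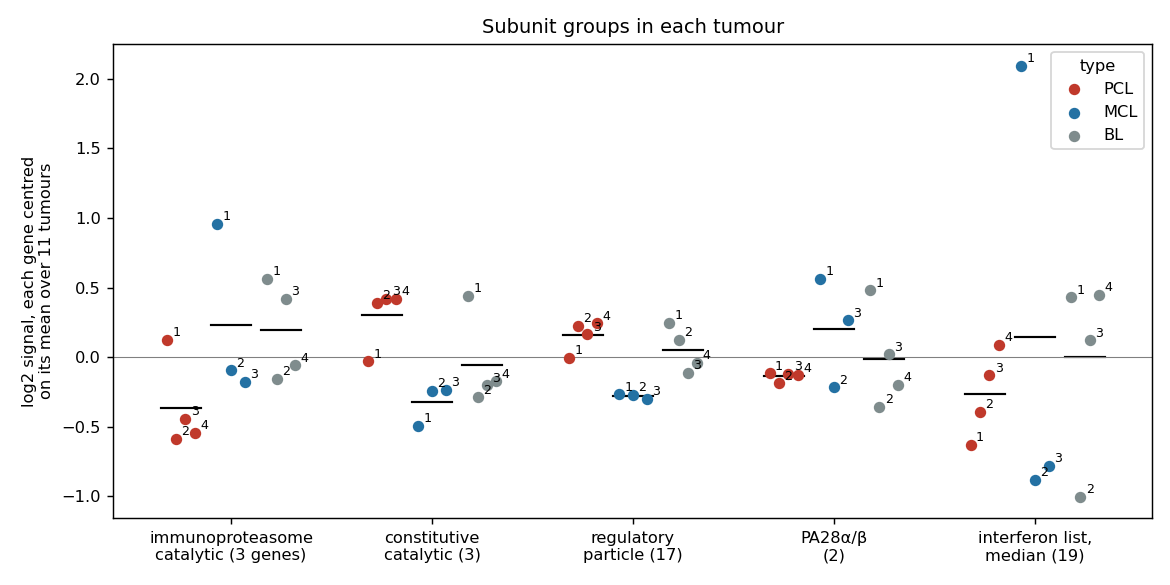
Mean centred log2 level (vertical axis) of groups of subunits in each tumour, and the median of the interferon list, by type with a line at the type's mean. The regulatory particle lies between -0.30 and -0.27 in the 3 MCL and between -0.01 and 0.24 in the 4 PCL, while the immunoproteasome subunits lie between -0.59 and -0.44 in PCL2 to PCL4 and at 0.96 in MCL1.

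Assembly chaperones differed less evenly. Psmd10 (gankyrin), a chaperone of the regulatory particle base, lay at -0.28, 0.81, 0.32 and 0.94 in PCL1 to PCL4, at -0.19, -0.44 and -0.38 in MCL1 to MCL3, and at -0.08, -0.20, -0.38 and 0.11 in BL1 to BL4. PCL2 to PCL4 were above all other tumours and PCL1 was within them. The difference was 0.78 ± 0.28 from MCL (adjusted p = 0.122) and 0.58 ± 0.26 from BL (adjusted p = 0.282), and without PCL1 it was 1.03 (adjusted p = 0.0176) and 0.83 (adjusted p = 0.0474). A dimmer probe of the gene gave 0.24 from MCL and 0.30 from BL. On that probe PCL3 (-0.87) lay below MCL1 (-0.85), MCL2 (-0.82) and BL4 (-0.81). Over the 24 other settings Psmd10 was called in 2 from MCL and in 2 from BL, and limma's adjusted p reached 0.279 and 0.612.

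Psmd5 and Psmg2 were the flattest of the chaperones. Psmd5, of the regulatory particle, lay at 1.39, 1.58, 1.47 and 1.40 in PCL1 to PCL4, 1.14, 1.83 and 1.58 in MCL1 to MCL3, and 2.05, 1.36, 1.22 and 1.17 in BL1 to BL4. Psmg2, of the core, lay at 2.88, 2.91, 3.00 and 2.99 in PCL1 to PCL4, 2.97, 3.21 and 3.00 in MCL1 to MCL3, and 3.18, 3.24, 2.96 and 3.02 in BL1 to BL4. The types overlapped for both, and the 95% interval of the difference between PCL and MCL was -0.60 to 0.49 for Psmd5 and -0.44 to 0.21 for Psmg2. Of the 4 core chaperones 3 were higher in PCL than in MCL (median 0.17, 0 called).

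Among the activators, Psme4 (PA200), a nuclear cap of the core that takes the place of the regulatory particle, had the widest range of type means among the members well above background on all 11 arrays. It lay at -0.65, 1.28, 2.41 and 1.94 in PCL1 to PCL4, at -0.67, -0.57 and -0.86 in MCL1 to MCL3, and at -0.73, -0.08, -0.72 and 0.89 in BL1 to BL4. PCL2 to PCL4 were the highest tumours, BL4 came next, and PCL1 was level with the MCL. The difference was 1.95 ± 0.66 from MCL (95% interval 0.47 to 3.42, adjusted p = 0.105), a 3.86-fold level, and 1.40 ± 0.61 from BL (adjusted p = 0.271). Without PCL1 it was 2.58 from MCL (adjusted p = 0.00982) and 2.04 from BL (adjusted p = 0.0294), and a second probe over all tumours gave 1.28 and 0.55. Over the 24 other settings Psme4 was called in 2 from MCL and in 2 from BL. The differences there fell to 1.56 and 0.98, and limma's adjusted p reached 0.241 and 0.538.

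Psme1 and Psme2, the interferon-responsive PA28 activator, were lower in PCL than in MCL on average, without a call. Psme1 lay at 4.52, 4.52, 4.45 and 4.54 in PCL1 to PCL4, at 5.28, 4.35 and 4.90 in MCL1 to MCL3, and at 5.18, 4.42, 4.64 and 4.35 in BL1 to BL4 (PCL minus MCL -0.34 ± 0.26, adjusted p = 0.456). Psme2 lay at 5.70, 5.56, 5.76 and 5.64 in PCL1 to PCL4, at 6.30, 5.66 and 6.08 in MCL1 to MCL3, and at 6.23, 5.32, 5.84 and 5.70 in BL1 to BL4 (PCL minus MCL -0.35 ± 0.23, adjusted p = 0.392). MCL1 and BL1 were highest for both, and the PCL lay close together. Without MCL1 the difference was -0.12 for Psme1 and -0.21 for Psme2.

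Psme3, the nuclear PA28gamma, lay at 0.51, 0.35, 0.54 and 0.36 in PCL1 to PCL4, at 0.49, 1.13 and 0.77 in MCL1 to MCL3, and at 0.58, 0.46, -0.05 and 0.60 in BL1 to BL4 (PCL minus MCL -0.36 ± 0.21, adjusted p = 0.339). Psmf1 (PI31), an inhibitor of the core in vitro, lay at 0.50, 0.76, 0.51 and 1.00 in PCL1 to PCL4, at 0.41, 1.24 and 0.58 in MCL1 to MCL3, and at 1.46, 0.61, 0.38 and 0.39 in BL1 to BL4. The types overlapped for each, and the Psmf1 difference between PCL and MCL had a 95% interval of -0.73 to 0.63.

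**Figure D4:**
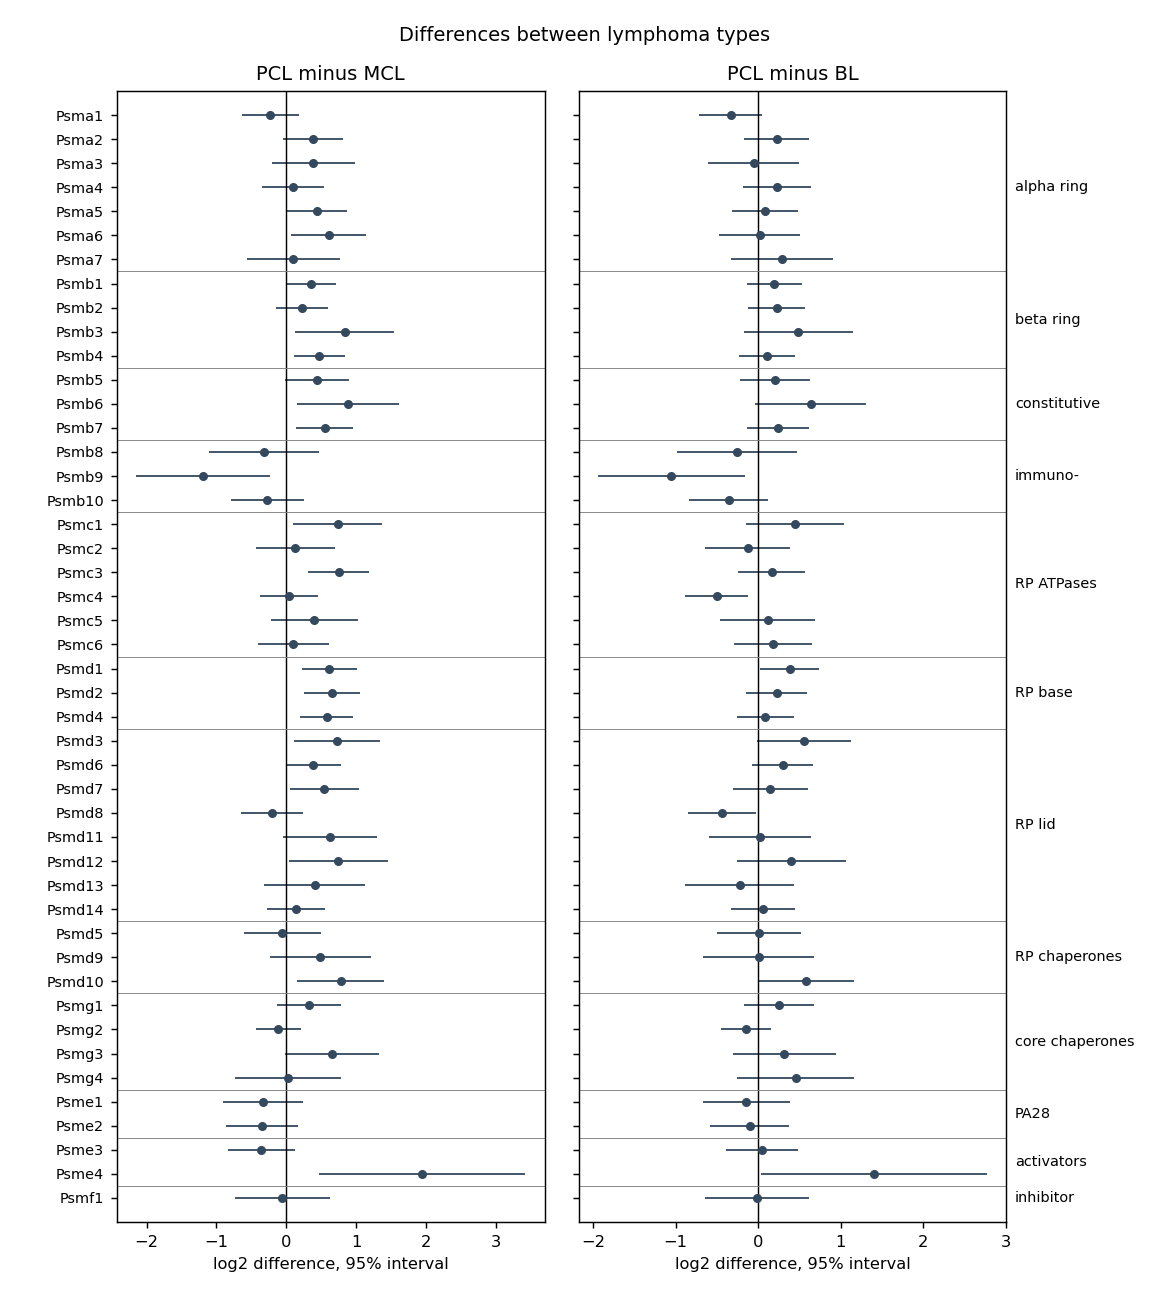
Log2 difference (horizontal axis) of the tested proteasome genes, without Psma8 and Psmc3ip, between PCL and MCL (left) and between PCL and BL (right), with its 95% interval, genes in rows by role. Psmc3 is the member called at an adjusted p under 0.05, and the immunoproteasome and PA28alpha/beta genes lie left of 0 in both panels.

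Of the tissue-restricted forms, Psmb11 did not rise well above background in any tumour, and Psma8 did so in some. Psmb11, the thymus-specific beta5 subunit, was not well above background on any of the 11 arrays. Psma8, the testis form of the alpha4 subunit, was well above background on 4 arrays, with -4.66, -8.15, -7.39 and -7.78 in PCL1 to PCL4, -8.36, -2.83 and -4.44 in MCL1 to MCL3, and -8.83, -2.56, -8.13 and -8.16 in BL1 to BL4. The brighter tumours were PCL1, MCL2, MCL3 and BL2, at least 1 of each type, and no difference is given.

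Genes that work with the particle without carrying its name gave no call. Of 18 accessory and assembly genes 14 were higher in PCL than in MCL (median 0.12, unadjusted p under 0.05 for 2). Pomp, the maturation factor of the core, differed by 0.04 (adjusted p = 0.944), Sem1, the smallest lid subunit, by -0.13 (adjusted p = 0.809), and Adrm1, a ubiquitin receptor of the base, by 0.30 (adjusted p = 0.555). Of 9 genes of proteasome gene regulation 4 were higher in PCL (median 0.00, 0 called, 1 with an unadjusted p under 0.05), and Nfe2l1, the factor that raises subunit genes when the proteasome is short, differed by 0.28 (adjusted p = 0.703). Of 6 ubiquitin genes 3 were higher (median 0.13, 0 called, 1 with an unadjusted p under 0.05).

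The levels of subunits also tended to run with the chromosome they lie on, a pattern looked for after the values were seen. For each tumour the median centred level of the other genes on a chromosome was taken. Over 31 subunits of the 26S particle in 11 tumours, 341 points, Pearson's r with that median was 0.63, against 0.27 over 9930 other genes with signals above the median (109230 points). Some points went against the median of their chromosome. Psmc3 had a centred level of -0.83 in MCL2, where chromosome 2 stood at 0.20. Psmc6 had one of -0.21 in MCL3, where chromosome 14 stood at 0.33. The points share tumours, and genes of one chromosome share its median, so no p is given. The spread within types was smaller after subtraction of the chromosome median for 28 of 31 subunits (90.3%), against 63.9% of the other genes. Before subtraction the median SD within types was 0.23 for the subunits and 0.34 for the other genes. The sets were not matched for this spread, and a larger spread of single genes can lower both r and that share. Whether subunits follow their chromosome more closely than other genes was therefore not tested.

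On chromosome 3 the median was 0.31 in PCL1, -0.17 in MCL1 and 0.24 in BL4. Its 3 members, Psma5, Psmb4 and Psmd4, were highest in PCL1 (0.48, 0.41 and 0.45 above their own means) and second highest in BL4 (0.30, 0.25 and 0.32). The alpha5, beta4 and ubiquitin-receptor subunits that they encode sit in different parts of the particle.

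On chromosome 7 the median was 0.04, -0.50, -0.13 and -0.32 in PCL1 to PCL4, 0.02, 0.26 and 0.06 in MCL1 to MCL3, and 0.17, 0.23, 0.19 and 0.05 in BL1 to BL4. The 4 members there, Psma1, Psmc4, Psmd8 and Psmd13, had a median difference of -0.39 between PCL and BL and -0.08 between PCL and MCL. The other 27 genes of the particle had 0.20 and 0.47, and all 27 were higher in PCL than in MCL. Psma1 and Psmd8 were the only 2 genes of the 31 that were not higher in PCL than in MCL.

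Chromosome 11, with 9 members (Psmb3, Psmb6, Psmc5, Psmd3, Psmd11, Psmd12, Psme3, Psme4 and the name match Psmc3ip), had medians of -0.09, 0.13, 0.23 and 0.15 in PCL1 to PCL4, -0.07, -0.28 and -0.05 in MCL1 to MCL3, and 0.17, -0.09, -0.35 and 0.21 in BL1 to BL4. The split of Psmb3 and Psmd3 among the BL, high in BL1 and BL4 and low in BL2 and BL3, ran with it. Others did not, as with Psmc5 and Psmd11 at 0.17 and 0.26 above their means in BL2, Psmb6 at -0.08 in BL4 and Psme4 at -0.93 in BL1. With the chromosome median subtracted, the difference between PCL and MCL was 0.64 for Psmb6, 0.60 for Psmb3 and 0.79 for Psmc3 (adjusted p = 0.0609), and 0 members were called. The regulatory particle mean then differed by 0.41 between PCL and MCL, and the balance of immunoproteasome and constitutive subunits by -1.29. Psmb8 and Psmb9 lie on chromosome 17, where the medians stayed between -0.15 and 0.09. DNA copy number was not analysed here, and its part was not tested.

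**Figure D5:**
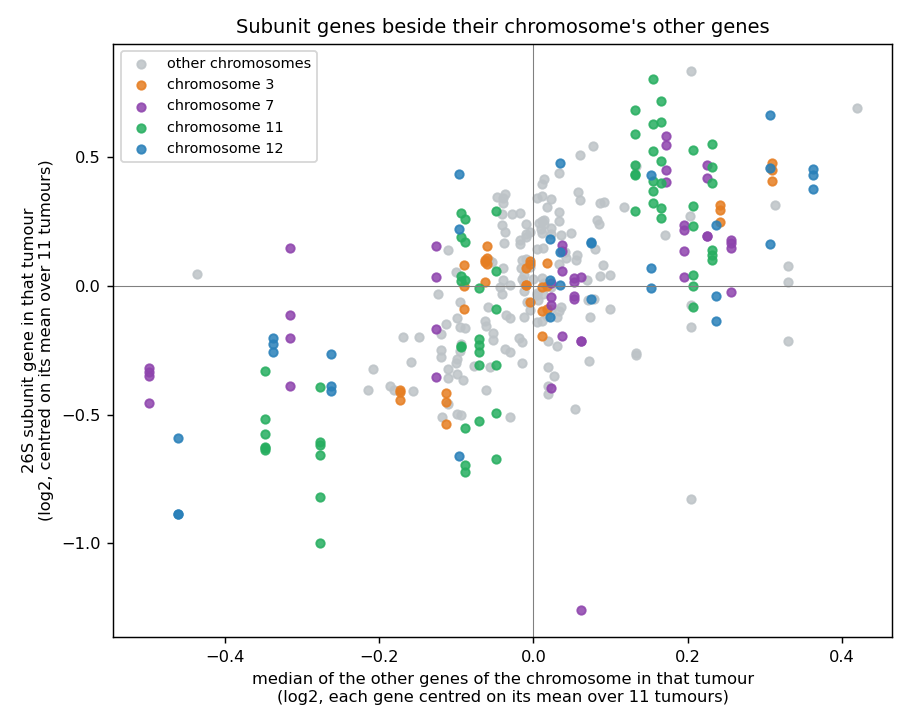
Centred log2 level of each 26S subunit gene in each tumour (vertical axis) against the median centred level of its chromosome's other genes in that tumour (horizontal axis), coloured for chromosomes 3, 7, 11 and 12. The points rise together (r = 0.63 over 341 points), and the 4 members on chromosome 7 in PCL2 stand at the far left, where the chromosome median is -0.50.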

How the data were processed

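Total RNA of 11 lymphomas (4 PCL, 3 MCL, 4 BL, grouped by the labels' tumour origin) was read on one-colour Agilent arrays. Per the file headers, the deposited scanner files hold spot intensity written by Feature Extraction 10.7.3.1 of Agilent. A value table deposited by the authors, log2 as its values show and of unstated making, served as an alternative.

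Processed signals were set on a log2 scale relative to each array's 75th percentile (1072 to 1637 intensity units). Between 55.5% and 62.8% of spots were well above background. A probe had to be well above background on 3 or more arrays (25296 did), and the brightest probe stood for a gene. limma 3.58.1 (R 4.3.3) fitted all 11 arrays with a mean per type (8 residual degrees of freedom), tested on simulated data first, with Benjamini-Hochberg adjustment over 20181 genes and a threshold of 0.05. Error terms after ± are standard errors for differences and SD for means.

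Members and gene lists were chosen with earlier results of these data known. Values in every tumour are given for catalytic subunits, activators, Psmf1, Psmb11, Psma8, called members, and the 3 widest and 3 narrowest ranges of type means among the rest. Alternatives varied background correction, normalization, filter, probe choice, weights, prior, array position, types fitted and each tumour left out.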

Additional observations from a re-analysis of the deposited data

Results flagged for a closer look

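Psmb9 in PCL1 stood at 3.72, far from the other 3 PCL at 2.59 to 2.72. The balance of immunoproteasome and constitutive catalytic subunits in PCL1 stood at 0.16, against -0.98 to -0.86 in the other PCL. The same balance in BL3 stood at 0.62, against 0.12 to 0.13 in the other BL. Psma8 in BL2 stood at -2.56, against -8.83 to -8.13 in the other BL, in a probe that was well above background on 4 of the 11 arrays. Each is the tumour with a gap to its group larger than Dixon's 95% critical value for 4 samples allows. Values of 44 groups of 4 tumours were looked at, and chance alone marks about 1 in 20 groups. No explanation was tested for any of them.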

How the results depend on the processing

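Between PCL and MCL the number of members called moved with nearly every setting. It was 3 with normexp and quantile normalization (6.25% of members, against 7.18% of all genes), 3 with the authors' value table (6.25%, against 7.54%), 2 with probes well above background on all 11 arrays (4.26%, against 7.61%), 4 with an intensity trend in the prior (8.33%, against 6.14%) and 16 with array quality weights (33.3%, against 21.9%). It was 0 with quantile normalization, array-median centring, no filter on dim probes, averaged probes, the chromosome median subtracted (chosen after seeing the data) or only the 2 types compared, and 0 to 5 when each tumour was left out. Among the 3 types it was 15 with array weights (31.2%, against 23.6%), 1 with the trend (2.08%, against 7.08%), and 0 to 5 with each tumour left out. Between PCL and BL it was 4 with array weights (8.33%, against 10.8%) and 0 to 2 with each tumour left out. With array position as a replicate block it was 0 in each comparison. Position pairs no tumours by the labels, and same-position tumours had correlations of deviations from -0.05 to 0.17, with 6 of 10 best matched by their own position.

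Calls over all genes moved too. Over the other settings they ranged from 341 to 4763 among the 3 types (1701 as reported), from 338 to 4424 between PCL and MCL (1401), from 3 to 2183 between PCL and BL (133) and from 291 to 1382 between MCL and BL (1341). Array-median centring gave a regulatory particle difference of -0.15 between PCL and BL and -0.60 between MCL and BL. Over the settings named, the balance of catalytic subunits and the regulatory particle kept their direction between PCL and MCL. The 11 arrays limit the precision, with a median standard error of 0.31 between PCL and MCL. Psmb11, near background, carries only a weak signal, as does Psma8 outside the 4 arrays where it was well above background.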

Other observations

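Of the 18 accessory and assembly genes, 4 (22.2%) were higher in every PCL than in every MCL, against 9.07% of all genes. They were Usp14, Uchl5, Ecpas and Vcp, and 2 of these were singled out after their values were seen. Ecpas, a scaffold that binds the 26S proteasome, lay at 0.32, 0.40, 0.62 and 0.46 in PCL1 to PCL4, at -0.85, -0.09 and -0.46 in MCL1 to MCL3, and at -0.47, 0.29, 0.46 and 0.07 in BL1 to BL4. All PCL were above all MCL, with a difference of 0.92 ± 0.25 (SE, limma adjusted p = 0.0570). Vcp, the ATPase that extracts ubiquitin-tagged proteins for degradation, lay at 4.72, 5.01, 5.18 and 4.75 in PCL1 to PCL4, at 4.34, 4.31 and 4.33 in MCL1 to MCL3, and at 4.90, 4.60, 4.55 and 4.44 in BL1 to BL4. The 3 MCL were the lowest tumours, and the difference between PCL and MCL was 0.59 ± 0.18 (adjusted p = 0.0733).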
